A study of Mus musculus with 18 samples.

Results

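The 40 genes described here encode the lysosome of the thyroid and the route by which thyroglobulin reaches it. They were chosen by name: 9 cysteine cathepsins, 3 other cathepsins, 2 cathepsin inhibitors, 4 lysosomal membrane proteins, 8 glycosidases, lipases and activators, 4 subunits of the proton pump (V-ATPase), 5 uptake receptors and their adaptor, 2 Rab GTPases and 3 genes of the TFEB family and its autophagy partner. Legumain (Lgmn) is counted with the cysteine cathepsins. The choice was made with earlier results of these data known. All 40 were found among the 24054 genes of each deposited table. RNA-Seq of thyroid, pituitary and hypothalamus was compared between WT mice and mice homozygous for THRB K146Q, a whole-body knock-in of a single base change that removes 1 sumoylation site from every isoform of the thyroid hormone receptor β. All mice were untreated, 3 months old and of strain C57BL/Ntac, the WT mice being of the substrain of the mutants and, by the general statement of the study's methods, male. Each tissue had 6 libraries, numbered 1, 2 and 43 for WT and 60, 62 and 83 for K146Q mice. Because the mutation is present in every tissue from conception, a difference in thyroid cannot be assigned to the receptor in the thyroid itself, and whole glands were sequenced. The question of the comparison was how loss of this site changes the hypothalamus-pituitary-thyroid axis.

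Thyroid hormone is made on thyroglobulin, a large protein stored in the follicle lumen. The follicular cell takes it back up, partly through receptors of the LDL receptor family and by fluid uptake, delivers it through early and late endosomes to acidified lysosomes, and there cathepsins cut it to release T4 and T3. Thyroglobulin is also cut outside the cell by secreted cathepsins. The transcription factors TFEB and TFE3 drive many lysosomal genes in many tissues by binding a short palindromic element, the CLEAR element, in their promoters. Macrophages, which every tissue holds, are rich in the same enzymes.

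Depth ran from 14902330 to 21230050 reads per library. The thyroid libraries carried the markers of follicular cells at a summed level of 300657 to 362170 CPM in WT and 91135 to 138613 CPM in K146Q mice, against at most 233 CPM in the other tissues. Pituitary endocrine markers summed to 110072 to 257090 CPM in pituitary and at most 601 CPM elsewhere. Neuronal and glial markers summed to 6913 to 8004 CPM in hypothalamus and at most 877 CPM elsewhere, so the tissue labels held. CPM are the normalized read counts as deposited, scaled to library size times a normalization factor. In thyroid this factor was 0.79 to 0.81 for WT and 0.88 to 0.95 for K146Q libraries. Fold changes below are differences of log2(CPM + 0.5) (small for genes with few reads). Gene counts cannot show the base change of the mutation, so the genotype labels were not checked here. With 3 mice against 3, an exact two-sided permutation test cannot give a p below 0.1, and this was the p of every member whose genotypes did not overlap. p-values come from limma over all genes of a tissue with Benjamini-Hochberg adjustment, and a gene was called at an adjusted p under 0.05.

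Promoter windows of 300 bases, 250 before and 50 after each RefSeq start, were searched for the CLEAR core TCACGTGA. A gene was counted if any of its windows held the core. It was in 6 of the 33 members with a window (18.2%), against 1.12% of all 27025 genes with a window. The element is described above as one of lysosomal genes, so this excess in a lysosomal set is not a separate result. The core is its own reverse complement, so both strands were searched, and each core contains the E-box CACGTG. The E-box itself was in 12 of the 33 (36.4%), against 8.09% of all genes. No window was found by symbol for Atp6v0d2, Atp6v1h, Cstb, Ctsb, Ctse, Ctsh and Npc1. The 6 promoters are shown because they hold the same core, while 1 of their genes was called higher in the thyroid, 1 lower and 4 not. Each is written 5′ to 3′ on the strand of the gene, from RefSeq on GRCm38.p6, with the CLEAR core in capitals.
Ctsa, chr2:164833720-164833822, plus strand: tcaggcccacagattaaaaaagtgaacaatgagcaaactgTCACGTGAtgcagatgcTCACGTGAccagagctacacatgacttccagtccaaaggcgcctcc
Atp6v1a, chr16:44139344-44139431, minus strand: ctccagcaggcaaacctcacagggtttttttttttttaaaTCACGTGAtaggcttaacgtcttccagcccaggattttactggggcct
Ctsd, chr7:142387879-142387966, minus strand: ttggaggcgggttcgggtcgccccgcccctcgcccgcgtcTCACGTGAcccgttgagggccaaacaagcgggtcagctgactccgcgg
Mcoln1, chr8:3500433-3500520, plus strand: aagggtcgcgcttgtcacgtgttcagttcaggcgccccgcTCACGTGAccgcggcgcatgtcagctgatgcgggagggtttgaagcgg
Atp6v0d1, chr8:105566021-105566108, minus strand: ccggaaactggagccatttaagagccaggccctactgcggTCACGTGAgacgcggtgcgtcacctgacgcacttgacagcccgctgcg
Rab5a, chr17:53479098-53479185, plus strand: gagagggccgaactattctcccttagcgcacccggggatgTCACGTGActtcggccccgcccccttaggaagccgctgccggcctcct
Ctsa was the only one of the 6 with 2 cores, and the only one called higher in the K146Q thyroid. Atp6v1a was called lower, and the other 4 were not called. A match is a string of letters, not a binding site, and a window without a match says only that these letters are not in these 300 bases.

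In the thyroid, most of the genes for enzymes inside the lysosome rose in K146Q mice, 3 of the 4 genes in the set for the proton pump that acidifies it fell, and the uptake receptors were not called. Of the 40 genes, 39 passed the filter on low values; 18 were higher and 4 lower in K146Q mice, so 56.4% were called where 37.8% of all 15200 genes tested were. The share called higher was 46.2% (19.7% of all genes), and the share called lower was 10.3% (18.1% of all genes). The median log2 fold change was 0.30 over the members and -0.025 over all genes. The genotypes did not overlap in 19 members with K146Q above WT (26.6% of all genes) and in 8 with K146Q below (25.7% of all genes), together 27 of 40 (52.4% of all genes).

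**Figure D1:**
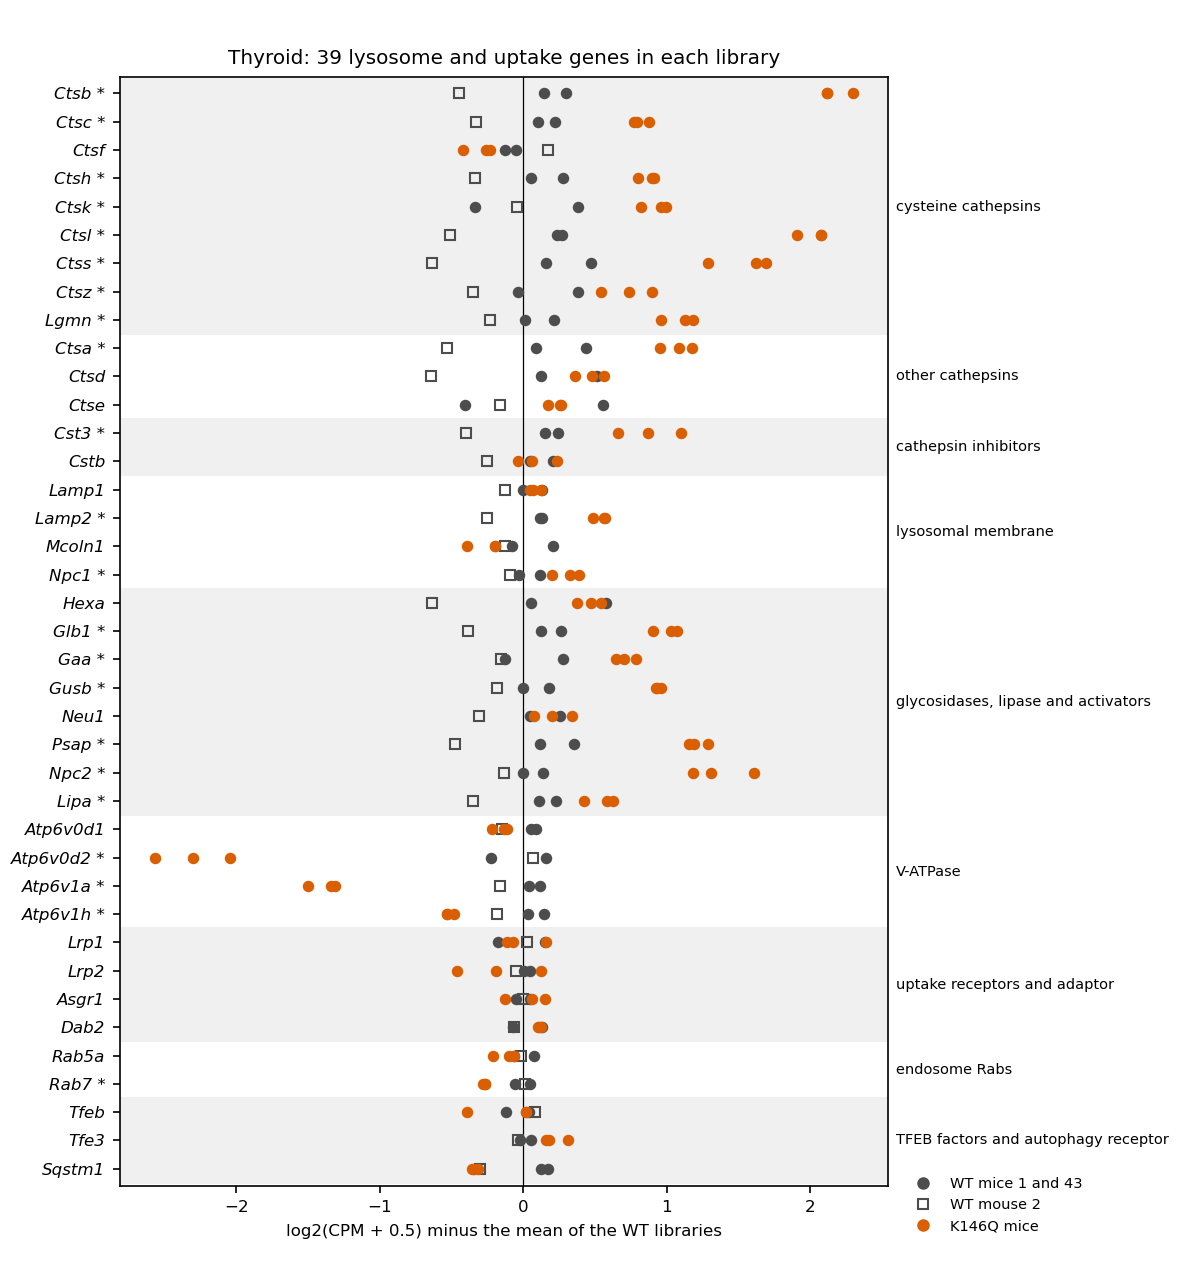
Each point is a thyroid library. The x axis is log2(CPM + 0.5) minus the mean of the 3 WT libraries, genes are grouped by role, an asterisk marks the 22 genes called by limma, and open squares are WT mouse 2. For 8 of 9 cysteine cathepsins (not Ctsf) and 6 of 8 hydrolases and activators (not Hexa and Neu1) the K146Q mice lie to the right of all WT points, and for Atp6v0d2, Atp6v1a and Atp6v1h they lie to the left.

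Cysteine cathepsins are the proteases best known for cutting thyroglobulin. Of the 9 genes of this group, with legumain (Lgmn) counted in, 8 were called higher. The largest change was in Ctsb, cathepsin B (ENSMUSG00000021939.8, chromosome 14 from 63122462 to 63145923, GRCm38, GENCODE M21), which had 1511, 1005 and 1688 CPM in WT mice 1, 2 and 43 and 6745, 5949 and 5939 CPM in K146Q mice 60, 62 and 83. Every K146Q library was thus more than 3 times above the highest WT library, and the log2 fold change was 2.18 (SE 0.26, adjusted p = 0.000785). Ctsl, cathepsin L (chromosome 13 from 64359337 to 64370890), had 820.2, 489 and 842 CPM in WT mice and 2942, 2934 and 2613 CPM in K146Q mice, a log2 fold change of 2.02 (SE 0.23, adjusted p = 0.000627). Ctss, the cathepsin of antigen-presenting cells, had 76.1, 34.9 and 61.2 CPM in WT mice and 178, 169 and 134 CPM in K146Q mice, a log2 fold change of 1.54 (SE 0.26, adjusted p = 0.00361). In each of these 3 genes WT mouse 2 was the lowest library, and no K146Q library overlapped a WT library.

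Lgmn, legumain, an asparaginyl endopeptidase that also processes cathepsins, had 101, 85.3 and 117 CPM in WT mice and 220.4, 229 and 196 CPM in K146Q mice (log2 fold change 1.09). Ctsk, cathepsin K, best known from osteoclasts, was low in this tissue, with 8.84, 6.45 and 5.17 CPM in WT mice and 13.4, 13.8 and 12.2 CPM in K146Q mice (0.93). Ctsh, cathepsin H, an aminopeptidase, had 204, 156 and 239 CPM in WT mice and 371, 368 and 343 CPM in K146Q mice (0.87). All 3 were separated between genotypes, with adjusted p from 0.000623 to 0.00774. Ctsc, the dipeptidyl peptidase cathepsin C, had 123, 90.7 and 133 CPM in WT mice and 198, 196 and 209.8 CPM in K146Q mice (log2 fold change 0.82). Ctsz, the carboxypeptidase cathepsin Z, had 144, 115 and 192 CPM in WT mice and 275, 245 and 215 CPM in K146Q mice (0.73). The K146Q values of Ctsz were closest to the WT range, and its call was lost without K146Q mouse 60 (adjusted p = 0.0585) or mouse 62 (adjusted p = 0.0623). Ctsf, cathepsin F, was the exception, with 54.4, 67.1 and 57.5 CPM in WT mice and 49.7, 50.5 and 44.3 CPM in K146Q mice, a log2 fold change of -0.30 that missed the threshold (adjusted p = 0.0514).

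Of the cathepsins that are not cysteine proteases, Ctsa was called and Ctsd and Ctse were not. Ctsa, the carboxypeptidase that protects neuraminidase and β-galactosidase and the gene with 2 CLEAR cores shown above, had 490.4, 319 and 623 CPM in WT mice and 1043, 979.7 and 891 CPM in K146Q mice, a log2 fold change of 1.07 (SE 0.23, adjusted p = 0.00926). Ctsd, the aspartic protease cathepsin D, had 2004, 1179.8 and 2627 CPM in WT mice and 2719.6, 2569 and 2360.0 CPM in K146Q mice. Its WT libraries spread over more than the distance between genotypes, with mouse 2 far below the K146Q mice and mouse 43 among them, and the log2 fold change of 0.47 (SE 0.30) was not called (adjusted p = 0.256). Ctse, an intracellular aspartic protease, was near the detection limit in thyroid, with 3 to 14 reads per library.

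The inhibitors differed from each other. Cst3, cystatin C, a secreted inhibitor of cysteine cathepsins, had 592, 403 and 629 CPM in WT mice and 1141, 970.5 and 843 CPM in K146Q mice, a log2 fold change of 0.88 (SE 0.20, adjusted p = 0.0113). Cstb, the intracellular inhibitor cystatin B, had 77.2 ± 12.2 CPM in WT and 81.7 ± 7.93 CPM in K146Q mice (SD, n = 3) and was not called (adjusted p = 0.63). Within a library the ratio of Ctsb to Cst3 reads was 2.49 to 2.68 in WT and 5.91 to 7.05 in K146Q mice, and that of Ctsb to Ctsd was 0.643 to 0.852 and 2.32 to 2.52. These ratios do not depend on the scaling of a library, and they show that the enzymes did not rise in proportion to each other or to cystatin C.

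Of the hydrolases, lipid enzymes and their activators, 6 of 8 were called higher. Psap, prosaposin, the precursor of the saposins that present lipids to lysosomal enzymes, had 2710.1, 1798 and 3188 CPM in WT mice and 5569, 6109 and 5711 CPM in K146Q mice, a log2 fold change of 1.21 (SE 0.30, adjusted p = 0.0157) that lost its call without K146Q mouse 62 (1.18, adjusted p = 0.0678). Npc2, the soluble cholesterol carrier of the lysosome, had 746, 681 and 824 CPM in WT mice and 2286, 1856 and 1701 CPM in K146Q mice, a log2 fold change of 1.37 (SE 0.16, adjusted p = 0.000765). Glb1, β-galactosidase, had 133, 93.1 and 146.2 CPM in WT mice and 249.6, 257 and 228 CPM in K146Q mice (1.003). For Npc2 and Glb1 the lowest K146Q library lay more than 1.5 times above the highest WT library.

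Gusb, β-glucuronidase, had 45.7, 40.3 and 51.8 CPM in WT mice and 89.6, 87.7 and 87.5 CPM in K146Q mice (log2 fold change 0.94). Gaa, the acid α-glucosidase that breaks down glycogen, had 254, 249 and 335 CPM in WT mice and 450.3, 477 and 433 CPM in K146Q mice (0.71). Lipa, lysosomal acid lipase, had 66.9, 44.6 and 61.5 CPM in WT mice and 85.6, 87.9 and 76.4 CPM in K146Q mice (0.54). Lipa was the smallest of these changes, and its call was lost without K146Q mouse 60 or 62 (adjusted p = 0.0701 and 0.0907). Hexa, the α subunit of β-hexosaminidase, had 245, 152 and 352 CPM in WT mice and 345, 327 and 306 CPM in K146Q mice, and was not called (adjusted p = 0.21). Like Ctsd, it showed a low WT mouse 2 and a WT mouse 43 level with the K146Q mice. Without mouse 43 the log2 fold change of Hexa was 0.75 (adjusted p = 0.0257) and without mouse 2 it was 0.15 (adjusted p = 0.518), so single WT libraries decided it. Neu1, neuraminidase, had overlapping genotypes (log2 fold change 0.21, adjusted p = 0.308).

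Among the membrane proteins, Lamp2, a structural glycoprotein of the lysosomal membrane that also serves chaperone-mediated autophagy, had 461, 357 and 466 CPM in WT mice and 632, 597 and 627 CPM in K146Q mice, a log2 fold change of 0.54 (adjusted p = 0.0133). Its partner Lamp1 was not called, with 796 ± 69.9 CPM in WT and 839.9 ± 24.2 CPM in K146Q mice (SD, n = 3). Npc1, the membrane cholesterol exporter that works with NPC2, was called at a smaller log2 fold change of 0.30 (adjusted p = 0.0364), and remained called in 2 of the 6 fits that left out a mouse. Mcoln1, a lysosomal calcium channel, had a log2 fold change of -0.26 (adjusted p = 0.113). Npc2 and Npc1, which act in sequence on cholesterol, thus differed in size, 1.37 against 0.30.

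Of the 4 V-ATPase genes in the set 3 were called lower (18.1% of all genes were) and none higher. Of 18 other subunits tested 5 were higher and 1 lower. That is 33.3% called, near the 37.8% of all genes. Atp6v0d2, a tissue-restricted d subunit of the membrane part (chromosome 4 from 19876841 to 19922605), had 20.1, 24.8 and 26.5 CPM in WT mice and 4.41, 5.35 and 3.58 CPM in K146Q mice, a log2 fold change of -2.30 (SE 0.17, adjusted p = 0.000119). Atp6v1a, the catalytic A subunit (chromosome 16 from 44085402 to 44139705), whose promoter holds the CLEAR core shown above, had 301, 261 and 317 CPM in WT mice and 103, 117 and 115 CPM in K146Q mice, a log2 fold change of -1.38 (SE 0.10, adjusted p = 0.000105). Atp6v1h, a regulatory subunit of the cytosolic part, had 107, 85.0 and 98.8 CPM in WT mice and 66.5, 68.9 and 66.6 CPM in K146Q mice, a log2 fold change of -0.52 (SE 0.10, adjusted p = 0.00513). All 3 kept their call and direction in each of the 6 fits that left out a mouse. Atp6v0d1, the ubiquitous d subunit, had 149 ± 13.0 CPM in WT and 134 ± 5.32 CPM in K146Q mice (SD, n = 3; adjusted p = 0.21), so the 2 forms of the d subunit differed, with log2 fold changes of -2.30 and -0.15. The ratio of Ctsb to Atp6v1a within a library was 3.85 to 5.32 in WT and 50.7 to 65.5 in K146Q mice.

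None of the uptake receptors was called in thyroid. Lrp2, megalin, the endocytic receptor that binds thyroglobulin, had 247, 238 and 255 CPM in WT mice and 179, 217 and 269 CPM in K146Q mice, a log2 fold change of -0.17 (SE 0.14, adjusted p = 0.372). The WT mice lay close together and the K146Q mice spread to both sides of them. Asgr1, a subunit of the asialoglycoprotein receptor, which binds poorly sialylated glycoproteins, had 187, 181 and 175 CPM in WT mice and 189, 201 and 166 CPM in K146Q mice (log2 fold change 0.03, SE 0.09). Lrp1, a broad endocytic receptor, stood at 245 ± 27.6 and 243 ± 25.5 CPM, and Dab2, the adaptor that links such receptors to clathrin, at 68.4 ± 5.66 and 73.9 ± 0.403 CPM in WT and K146Q mice (SD, n = 3). Cubn, cubilin, the partner of megalin in kidney, had 4 to 9 reads per library and failed the filter. The largest absolute log2 fold change of the 4 genes tested was 0.17.

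Of the endosomal Rabs, Rab7, which directs late endosomes to the lysosome, was called lower, with 103, 100.5 and 95.6 CPM in WT mice and 82.7, 82.0 and 82.6 CPM in K146Q mice (log2 fold change -0.27, adjusted p = 0.0178). Its call was lost without WT mouse 1 (adjusted p = 0.0707) or K146Q mouse 62 (adjusted p = 0.0728). Rab5a, of early endosomes, had a log2 fold change of -0.12 (adjusted p = 0.25). The TFEB group was not called in thyroid. Tfeb had 40.7 ± 3.01 CPM in WT and 37.8 ± 5.93 CPM in K146Q mice, and Tfe3 had 49.7 ± 1.73 and 57.9 ± 3.41 CPM (SD, n = 3; adjusted p = 0.515 and 0.0626). Sqstm1, the autophagy receptor p62, had 779, 578 and 805 CPM in WT mice and 557, 564 and 573 CPM in K146Q mice (log2 fold change -0.34, adjusted p = 0.105). WT mouse 2 lay beside the K146Q mice, and without it the log2 fold change of Sqstm1 was -0.49 (adjusted p = 0.00826).

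Thyroid WT mouse 2 stood apart in this set of genes, being the lowest WT library for 29 of the 39 members tested (74.4%, against 38% of all genes). Without it, 17 members were higher and 5 lower, and the log2 fold changes of Ctsb, Ctsl and Psap were 1.96, 1.76 and 0.98, each still called. The lowest count of calls came without K146Q mouse 62, at 17 members. Calls over all genes were then 3602 of 15000, and without WT mouse 2 they were 4733 of 14916. In the main fit they were 5739 of 15200. Another scaling changed some calls too, and the cause was not tested. When the 10 highest genes were kept out of the totals, the median of all thyroid genes was -0.12 and calls over all genes were 2496 higher and 3613 lower instead of 2992 and 2747. The members were then 17 higher and 8 lower, with Ctsf (-0.40), Mcoln1 (-0.36), Atp6v0d1 (-0.25) and Sqstm1 (-0.43) called lower and Npc1 (0.21) not called. The sign changed for Asgr1 (-0.07), Cstb (-0.0075) and Lamp1 (-0.015), which were not called under either scaling, and for no member called in thyroid.

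Transcript levels were compared between genes only per kilobase, using the longest protein-coding transcript of each gene in GENCODE M21, which understates a gene whose main transcript is shorter. In the WT thyroid Psap stood first at 966 ± 266 CPM per kb, then Ctsd at 911 ± 341 and Cst3 at 629.6 ± 141 (SD, n = 3), and the first and the second did not differ beyond their spread. Lamp1 followed at 357 ± 31.4 and Ctsb at 295 ± 74.7, again within their spread. In the K146Q thyroid Psap stayed first at 2182 ± 105 CPM per kb, and Ctsb moved from rank 5 to rank 2 at 1310 ± 97.6, beside Ctsd at 1199 ± 84.9 and Cst3 at 1145 ± 174. Ctsl moved from rank 14 to rank 6 (116 ± 32.0 to 459 ± 30.4 CPM per kb), and Atp6v1a from rank 18 to rank 28. Together the 40 genes held 0.845% to 1.31% of thyroid reads in WT and 2.29% to 2.71% in K146Q mice. Without the reads of Tg, which took 23.8% to 29.1% of WT and 7.98% to 11.5% of K146Q thyroid reads, these shares were 1.19% to 1.72% and 2.59% to 2.95%.

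Markers of macrophages moved in the same tissue and direction as the cathepsins. In thyroid 11 of 14 macrophage markers were called higher (78.6%, against 19.7% of all genes) and none lower. Their summed level was 379 to 699 CPM in WT and 1146 to 1358 CPM in K146Q mice, with WT mouse 2 the lowest. No marker was at 0. In bulk tissue a change in the number of cells of a type and a change in RNA per cell cannot be told apart. Relative to that sum, Ctss stood at 0.0922 to 0.109 in WT and 0.117 to 0.136 in K146Q thyroids, and Npc2 at 1.07 to 1.80 and 1.48 to 1.68, overlapping. Ctsb stood at 2.16 to 2.73 in WT and 4.79 to 5.18 in K146Q thyroids, and Ctsl at 1.17 to 1.36 and 2.166 to 2.36. Relative to the sum, Ctss, Ctsb and Ctsl thus did not overlap between genotypes (each exact two-sided permutation p = 0.1, the smallest that 3 against 3 allows). Relative to the single marker Csf1r, Ctss did overlap, at 0.736 to 1.26 in WT and 1.145 to 1.61 in K146Q thyroids (exact two-sided permutation p = 0.2). Ctsb, Ctsl, Ctss and Npc2 were the members with the largest rises in thyroid. The mean of the marker sum was 2.21 times as high in K146Q as in WT thyroids. The same ratio of means was 2.26 for Psap, 2.13 for Lgmn, 2.03 for Ctsa and lower for the other members called higher. Levels of those members relative to the sum were not computed. The share of macrophages in the levels of any member was not tested.

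**Figure D2:**
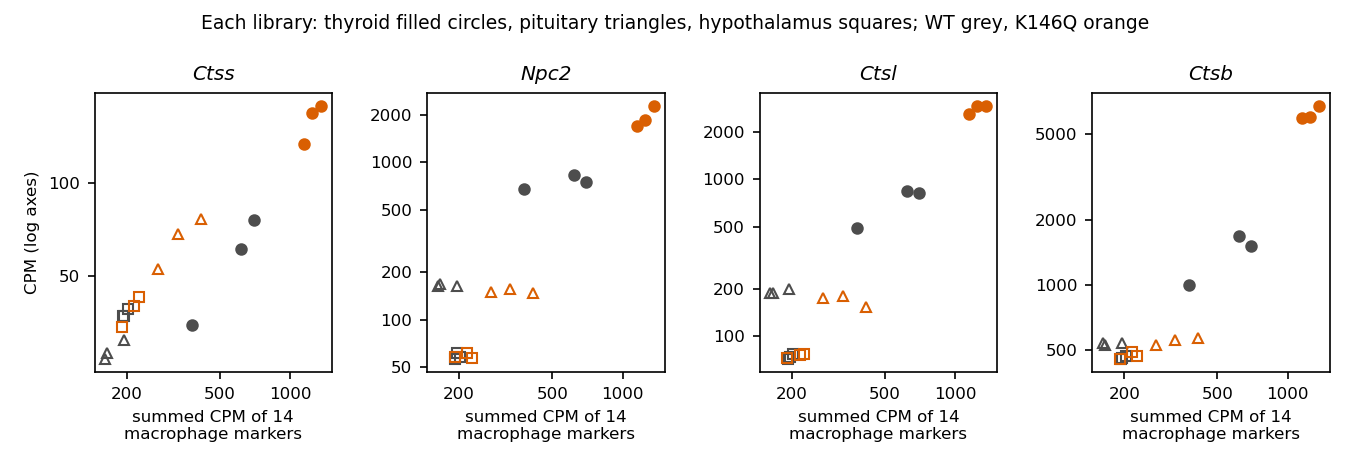
Each point is a library, with the summed CPM of 14 macrophage markers on the x axis and the CPM of a member on the y axis, both logarithmic. In thyroid (filled circles) all 4 genes and the markers are higher in K146Q (orange) than in WT (grey), whereas in pituitary (triangles) Ctss and the markers are higher in K146Q and Npc2, Ctsl and Ctsb are not called.

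Markers of other cell types were counted in the K146Q thyroid, where 37.8% of all genes were called. All 6 adipocyte markers were called lower (summed level 699.6 to 775 CPM in WT, 97.9 to 194 CPM in K146Q mice), and of 6 parathyroid and C-cell markers 5 were lower and 1 higher (12353 to 21308 CPM and 1837 to 5059 CPM). Of the fibroblast markers 2 of 6 were higher and 2 lower, of the endothelial markers 2 of 6 were higher, and of 7 lymphocyte and dendritic cell markers tested 3 were higher. Of the 10 follicular cell markers 3 were higher and 2 lower. Of 5 microglial markers 2 were higher and 1 lower, of 7 neuronal and glial markers tested 4 were lower, and of 6 skeletal muscle and 7 pituitary endocrine markers none was called. The muscle markers varied widely between libraries, with a summed level of 348 to 6685 CPM in WT and 781 to 3722 CPM in K146Q mice. The part of these cell types in the levels of the lysosomal genes was not tested.

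A wider set of 171 other genes of the same compartment, grouped by function, gave 40 higher and 36 lower of 162 tested in thyroid (46.9% called, against 37.8% of all genes). The share higher was 24.7% (19.7% of all genes) and the share lower 22.2% (18.1% of all genes). Among other lysosomal hydrolases and activators 19 of 34 were higher and 2 lower, with a median log2 fold change of 0.42. The other V-ATPase subunits, counted above, had a median of 0.15. Genes of TFEB regulation and autophagy were 1 higher and 12 lower of 32, with a median of -0.13. Other uptake and endosome genes were 4 higher and 8 lower of 29, sorting genes 2 higher and 5 lower of 20, other lysosomal membrane proteins 7 higher and 8 lower of 26, and other cathepsins and cystatins 2 higher of 3 tested.

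The largest rises in this wider set were Dpp7, a lysosomal dipeptidyl peptidase (log2 fold change 1.39), Ctsw, the cathepsin of cytotoxic lymphocytes (1.38, 2 to 46 reads per library), Atp6v1c2, a tissue-restricted C subunit of the V-ATPase (1.32), and the leukocyte lysosomal proteins Laptm5 (1.28) and Cd68 (1.19), the latter also among the macrophage markers. The largest falls were the lysosomal and endosomal cation channels Mcoln3 (-2.24) and Mcoln2 (-1.47), the Rab7 effector Rilp (-1.08), and 2 genes of nutrient sensing at the lysosome, Rragd (-1.08) and Fnip1 (-1.01). Mcoln3 had 8.53, 13.7 and 7.16 CPM in WT mice and 2.33, 1.35 and 1.29 CPM in K146Q mice. Rragd had 176, 159 and 203 CPM in WT mice and 87.4, 82.4 and 82.8 CPM in K146Q mice.

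**Figure D3:**
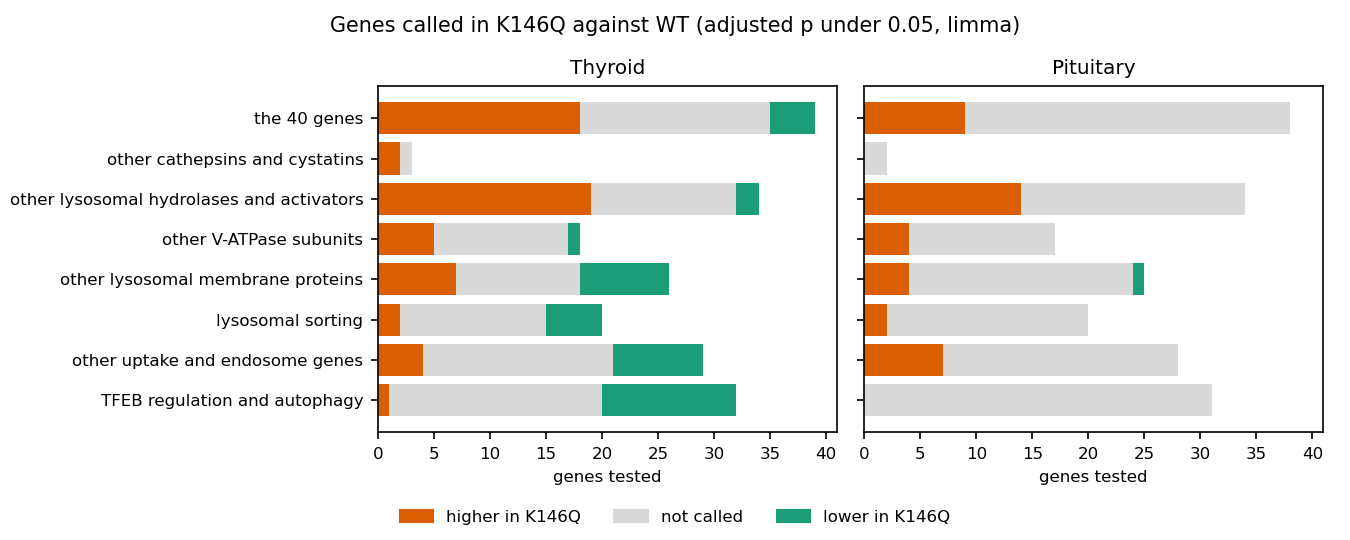
Bars count the genes tested in each list, with genes called higher in K146Q in orange, genes called lower in green and genes not called in grey. In thyroid the hydrolases are mostly higher and the TFEB and autophagy genes mostly lower or not called, and in pituitary nearly all calls are higher.

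In the pituitary fewer members were called, and every call was a rise. Of 38 members tested 9 were higher and none lower (23.7%, against 9.85% of all 15586 genes, with 6.35% higher and 3.5% lower), and the median log2 fold change was 0.19 (-0.0088 over all genes). Ctss had 28.2, 27.0 and 31.1 CPM in WT mice and 76.8, 68.7 and 52.8 CPM in K146Q mice, a log2 fold change of 1.17 (SE 0.13, adjusted p = 0.000645). Gaa had 650.2, 647 and 659 CPM in WT mice and 1027, 968 and 938 CPM in K146Q mice, a log2 fold change of 0.58 (SE 0.07, adjusted p = 0.000858). The genotypes of 18 members did not overlap with K146Q above (16.7% of all genes) and of 4 with K146Q below (14.3% of all genes). In Ctss and Gaa the WT mice lay close together and the K146Q mice lay clear above them. The other calls were Glb1 (log2 fold change 0.50), Neu1 (0.35), Lgmn (0.34), Ctsd (0.32), Atp6v1h (0.32), Psap (0.27) and Hexa (0.26).

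Of these 9 only Ctss, Gaa and Glb1 remained called in all 6 fits that left out a mouse. The number of calls was 3 without K146Q mouse 60, 3 without mouse 62 and 4 without WT mouse 2. Calls over all genes also fell in these fits, from 1536 to 625, 751 and 1069 in that order. When the 10 highest pituitary genes were kept out of the totals, calls over all genes were 836 higher and 879 lower instead of 990 and 546, and the members were 6 higher and 1 lower. Under quantile normalization Psap changed sign, to -0.09 (adjusted p = 0.462). Ctsb, at 536 ± 4.19 CPM in WT and 554 ± 23.1 CPM in K146Q pituitaries (SD, n = 3), and Ctsl, at 193 ± 7.30 and 170.2 ± 13.9 CPM, were not called (adjusted p = 0.711 and 0.177). Several members just missed the threshold, among them Ctsc (log2 fold change 0.59, adjusted p = 0.0519), Lamp2 (0.36, adjusted p = 0.0525), Tfeb (-0.43, adjusted p = 0.0535) and Ctsz (0.43, adjusted p = 0.0561). Atp6v0d2 had no read in any WT pituitary and at most 2 reads in a K146Q pituitary, and failed the filter, as did Ctse.

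Macrophage markers were called higher in the pituitary too, 12 of 14 (85.7%, against 6.35% of all pituitary genes). Their summed level was 162 to 195 CPM in WT and 273 to 415 CPM in K146Q mice. Ctss relative to that sum stood at 0.160 to 0.170 in WT and 0.185 to 0.207 in K146Q pituitaries, whereas Ctsb relative to it stood lower in K146Q, at 2.76 to 3.32 in WT and 1.38 to 1.93 in K146Q pituitaries. In the wider set 31 genes were higher and 1 lower of 157 tested (20.4% called, against 9.85% of all pituitary genes, with 6.35% higher and 3.5% lower), with 14 of 34 other hydrolases higher and none of 31 TFEB and autophagy genes called. Its largest rises were the macrophage genes Lyz2 (log2 fold change 1.28) and Mrc1 (1.05), both also in the macrophage list, and Ggh, the lysosomal γ-glutamyl hydrolase (1.19). The single fall was Tpcn1, an endolysosomal cation channel (-0.35).

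In the hypothalamus no gene of the set was called. None of the 38 members tested was called by limma, where 0% of all 15758 genes were called and 644 genes had an unadjusted p under 0.05. No member had an unadjusted p under 0.05, and edgeR and DESeq2 called none of them (0 and 9 of all genes). The genotypes did not overlap in 3 members (9.14% of all genes), 2 with K146Q above (4.2%) and 1 with K146Q below (4.94%). The largest absolute log2 fold change was 0.33, of Ctsk at 1.33 to 2.30 CPM. Ctsb had 455, 470.4 and 462 CPM in WT mice and 491, 469.7 and 458 CPM in K146Q mice, and the macrophage sum was 193 to 203 and 192 to 227 CPM, both overlapping. None of the 156 tested genes of the wider set was called.

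**Figure D4:**
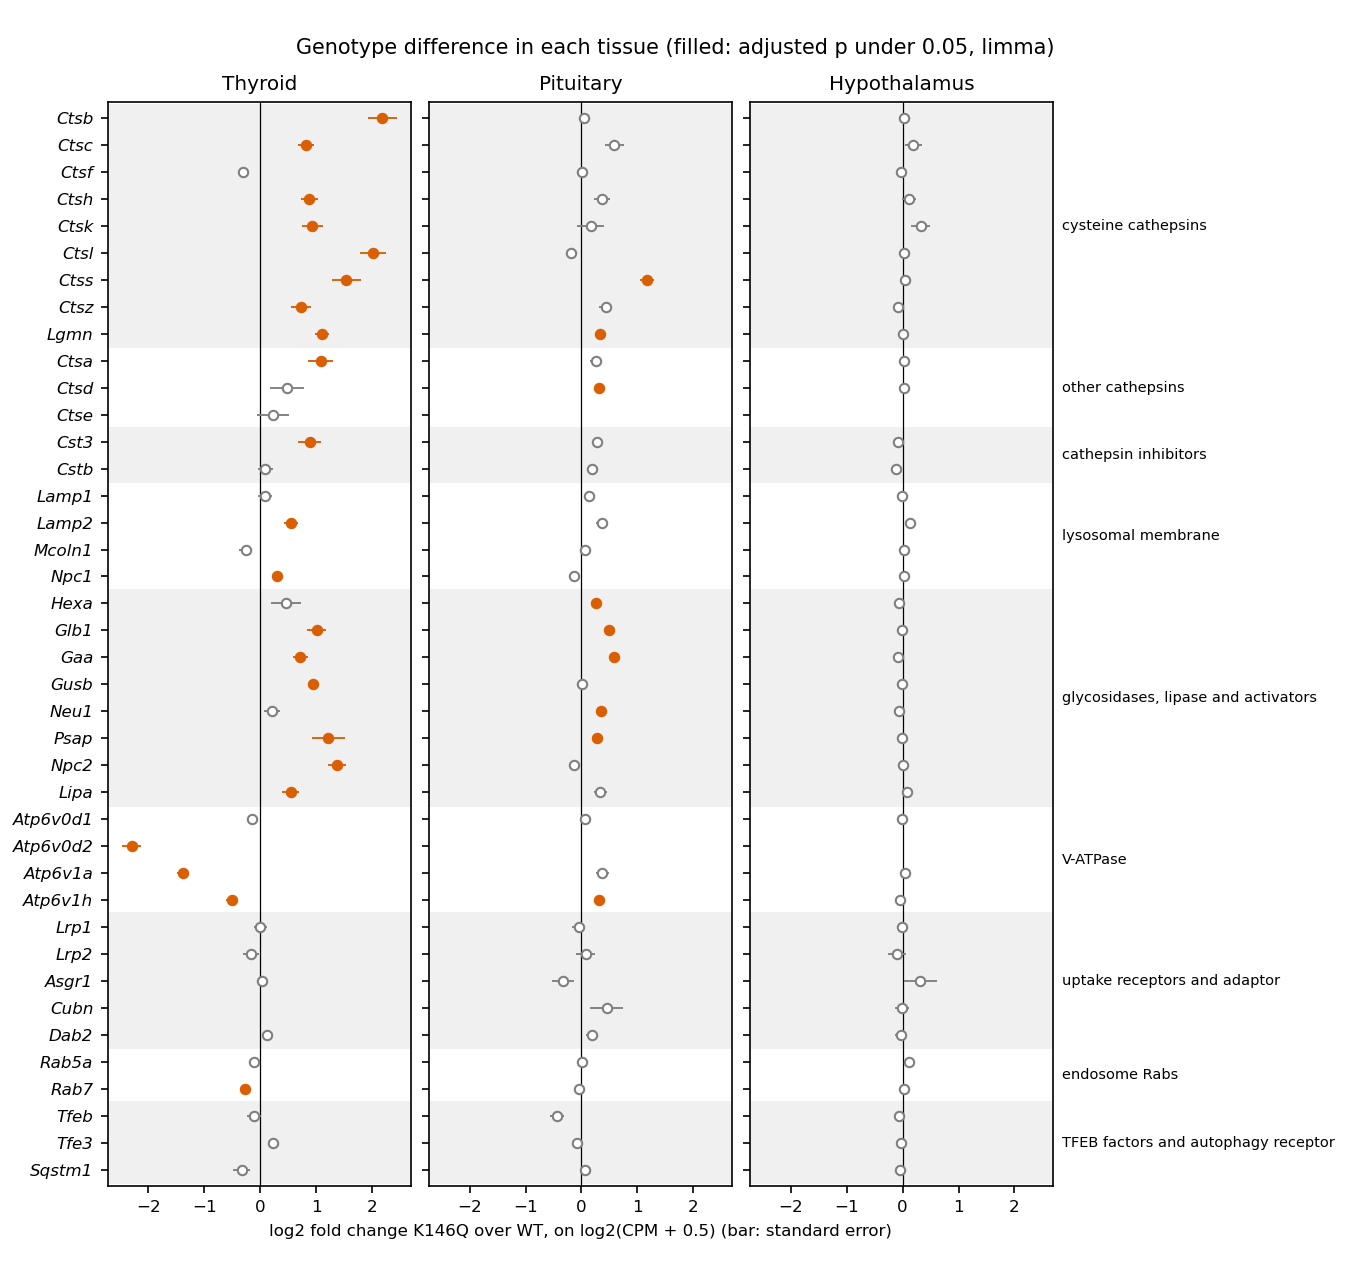
The x axis gives the log2 fold change of K146Q over WT for each of the 40 genes in each tissue, with bars of 1 standard error. Filled points passed an adjusted p of 0.05 in limma (22 in thyroid, 9 in pituitary, none in hypothalamus), and genes that failed the filter are left blank.

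Whether the genotype effect itself differed between thyroid and pituitary was tested in a fit of all 18 libraries. It differed for 16 of the 40 members (40%, against 33.8% of all 17140 genes), 11 with a higher and 5 with a lower effect in thyroid (16.4% and 17.4% of all genes). Ctsl differed most among those higher in thyroid, by 2.20 (SE 0.20, adjusted p = 3.88e-07), followed by Ctsb at 2.13 (SE 0.18, adjusted p = 2.11e-07) and Npc2 at 1.496 (SE 0.13, adjusted p = 1.70e-07). Atp6v1a differed by -1.76 and Atp6v1h by -0.83, the latter called lower in thyroid and higher in pituitary. Atp6v0d2 is counted among the 16 at -2.44, but with 0 to 2 reads in a pituitary library its pituitary side holds no measurable effect, and the value restates its fall in thyroid. For Ctss the effects in the 2 tissues, 1.54 and 1.17, differed by 0.36 (SE 0.29), which was not called (adjusted p = 0.36). Ctsh, at 0.50, was not called either (adjusted p = 0.0658). Without K146Q mouse 62 the number of members that differed was 10, and without mouse 60 it was 11. Over all genes these fits called 4027 and 4655, against 5790 in the main fit.

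In WT mice the thyroid was the tissue richest in most of these transcripts. Of the 40 members, 31 were higher and 4 lower in WT thyroid than in WT pituitary (87.5% called, against 75.6% of all genes, with 37% of all genes higher), and 28 were higher and 10 lower than in WT hypothalamus (95% called, against 81.9% of all genes, with 41.9% higher). When the 10 highest genes of each tissue were kept out of the totals, the median of all genes between WT thyroid and WT pituitary moved from -0.027 to -0.25, calls over all genes from 6341 higher and 6611 lower to 4967 and 8226, and the members to 28 higher and 6 lower. Without WT mouse 2 the members lower than in WT hypothalamus numbered 6. Asgr1 (chromosome 11 from 70054085 to 70057894) stood furthest apart, at 175 to 187 CPM in WT thyroid, 0.756 to 1.08 CPM in WT pituitary and 0.179 to 0.986 CPM in WT hypothalamus. Lrp2 (chromosome 2 from 69424340 to 69586065) stood at 238 to 255, 5.58 to 8.01 and 3.06 to 4.82 CPM in the same order, and Atp6v0d2 at 20.1 to 26.5, 0 and 0 to 0.174 CPM. Of these 3 genes of the thyroid, Asgr1 and Lrp2 were not called between genotypes and Atp6v0d2 fell.

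Ctsh and Ctsc were also concentrated in thyroid, with log2 differences from WT pituitary of 4.15 and 3.40 and from WT hypothalamus of 4.60 and 4.63. Ctsb differed by 1.35 and 1.57, and Ctsl by 1.85 and 3.22. Members lower in WT thyroid than in both other tissues were Npc1, Gaa and Lrp1, with log2 differences from WT pituitary of -1.31, -1.24 and -0.38 and from WT hypothalamus of -1.56, -1.88 and -2.05. Atp6v1a had 293 ± 28.9 CPM in WT thyroid, 63.5 ± 9.74 in WT pituitary and 382 ± 14.2 in WT hypothalamus (SD, n = 3), and the 103 to 117 CPM of the K146Q thyroid lay between the last 2 tissues. Ctsf was not called against either tissue, with 59.7 ± 6.59, 65.1 ± 5.88 and 62.8 ± 4.41 CPM.

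**Figure D5:**
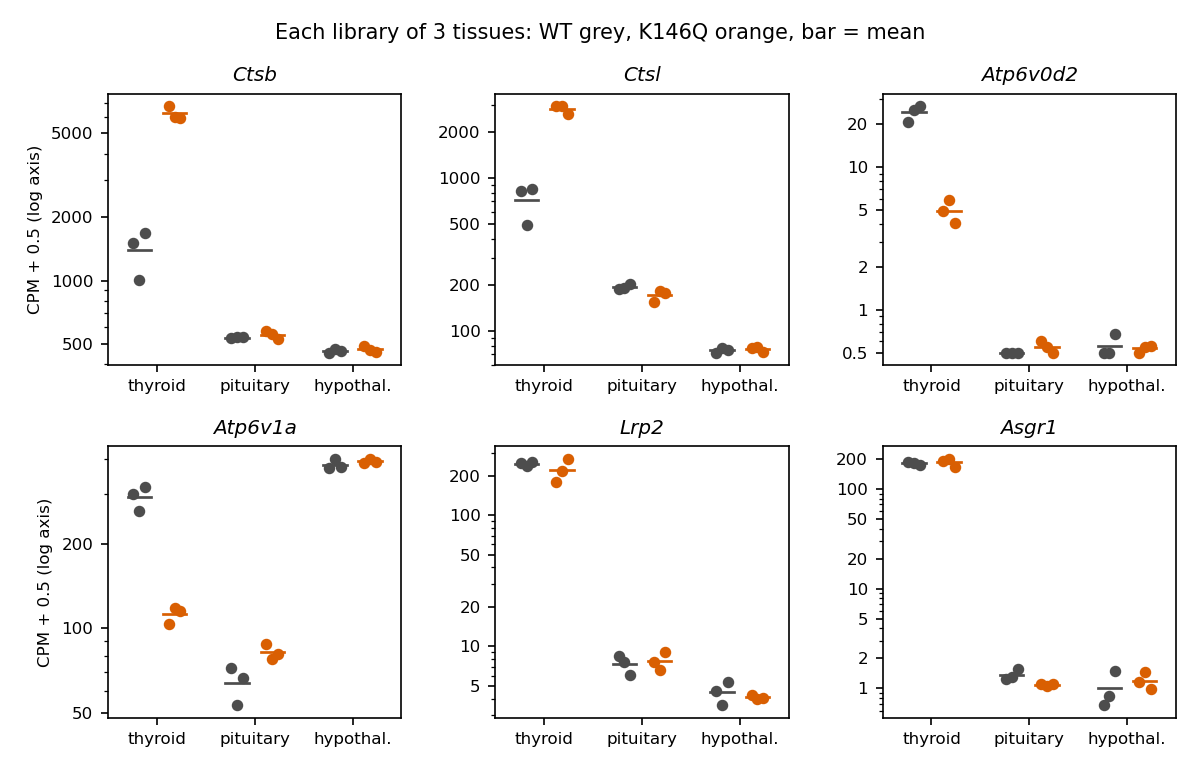
Each point is a library and each bar a group mean, as CPM + 0.5 on a logarithmic axis, for 6 members in the 3 tissues (WT grey, K146Q orange). Ctsb and Ctsl are higher and Atp6v0d2 and Atp6v1a lower in K146Q than in WT thyroids, and Lrp2 and Asgr1 are high in thyroid in both genotypes.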

How the data were processed

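RNA-Seq was analysed from 3 tissues with 3 libraries of each genotype, 18 libraries, whose labels gave tissue, genotype and number. Per the submitters' processing notes, bcl2fastq 2.17, Bowtie2 2.1.0 and RSEM 1.2.15 were used with mm10. The annotation and the strand setting are not given in the sources used here. For each tissue the authors deposited a normalized signal per gene and library, in CPM after scaling by a normalization factor. All values (100%, within 0.01 reads) were whole multiples of 1 read, so the reads were recovered. They total 14902330 to 21230050 per library, which bounds the precision of low genes. The factors of the 18 libraries have a geometric mean of 1, from which a joint normalization was inferred. The authors' own fold changes, averages, test statistics, p-values and FDR were not used.

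A gene was tested where 3 or more of a tissue's 6 libraries reached 0.5 CPM, with limma 3.58.1 (R 4.3.3) with a mean-variance trend on log2(CPM + 0.5), each tissue alone, with Benjamini-Hochberg adjustment over all genes tested. For differences between tissues 1 limma fit of 6 group means held all 18 libraries. The libraries are called mice by the numbers in their labels. The methods describe 3 mice of each genotype, and no source used here says that a number marks 1 animal in all tissues or whether tissue was pooled. A fit with the number as a block was an alternative. The alternatives also covered pseudocounts of 0.1 and 1, other filters, median of ratios, quantile normalization, totals without the 10 highest genes, limma without the trend, edgeR 4.0.16 and DESeq2 1.42.0 on the recovered reads, and leaving out each mouse. The scripts were tested on simulated data.

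The members and all gene lists were chosen with earlier results of these data known. Values of every library are given for members called with an absolute log2 fold change of at least 0.5 and for members whose libraries stand apart. From the wider lists the text names the 5 largest rises and falls in thyroid and the 3 largest in pituitary among called genes whose genotypes did not overlap and whose mean reached 1 CPM. Other single values were compared with an exact two-sided permutation test. Symbols were matched as in the tables, through older symbols where needed. Coordinates and lengths come from GENCODE M21 and promoters from RefSeq (GRCm38.p6).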

Additional observations from a re-analysis of the deposited data

Results flagged for a closer look

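For 16 members the genotype effect differed between thyroid and pituitary by the test of the difference itself (limma over 18 libraries, adjusted p under 0.05). That is 40% of the 40 members, near the 33.8% of all 17140 genes. The effect was higher in thyroid for 11 members (27.5%, against 16.4% of all genes) and lower for 5 (17.4% of all genes were lower). The effect on log2(CPM + 0.5) in thyroid minus that in pituitary was 2.20 for Ctsl, 2.13 for Ctsb and 1.496 for Npc2, followed by 0.94 for Gusb, 0.94 for Psap, 0.82 for Ctsa, 0.76 for Lgmn, 0.60 for Cst3, 0.50 for Glb1, 0.44 for Npc1 and 0.30 for Tfe3. It was negative for Rab7 (-0.22), Sqstm1 (-0.39), Atp6v1h (-0.83), Atp6v1a (-1.76) and Atp6v0d2 (-2.44). Atp6v0d2 had 0 to 2 reads per pituitary library and failed the filter there, so its value restates the fall in thyroid and compares no pituitary effect. Glb1, Rab7, Tfe3 and Sqstm1 were called in 2 of the 6 fits that left out a mouse, Cst3 in 3 and Ctsa in 5. Macrophage markers were higher in K146Q mice in both tissues, and their part in these differences was not tested.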

How the results depend on the processing

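In thyroid the number of members called was 22 and ran from 17 to 23 when a mouse was left out, with 14 to 19 higher and 3 to 5 lower. Calls over all thyroid genes then ran from 3602 to 5106, against 5739 in the main fit. Members lower numbered 8 when the 10 highest genes were kept out of the totals. Tfeb ranged from -0.18 to 0.019 when a mouse was left out. edgeR called 22 and DESeq2 23 members. In pituitary the number called was 9, all higher, against 3, all higher, without the trend and 15 by DESeq2, of which 14 were higher. It ran from 3 to 9 when a mouse was left out, with 3 to 9 higher and 0 to 1 lower. Calls over all pituitary genes then ran from 625 to 1344, against 1536 in the main fit. They were 1093 without the trend and 1807 by DESeq2. Tfeb was the 1 member lower under quantile normalization, the other totals and DESeq2. Psap in pituitary was -0.089 under quantile normalization. For the difference of effects the number was 16 and ran from 10 to 16 when a mouse was left out, with 7 to 11 higher and 3 to 5 lower. Over all genes it then ran from 4027 to 5457, against 5790. Members lower in WT thyroid than WT hypothalamus ran from 6 to 10. For these changes the cause was not tested. In hypothalamus no alternative called a member. Low depth limits Ctse and Cubn, with 3 to 14 and 4 to 9 thyroid reads.

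The shared numbers were examined as a pairing. Deviations from the group mean in thyroid and pituitary correlated at 0.0883 to 0.313 for libraries of the same number, over 11933 genes. With the other numbers of the same genotype the mean correlation was -0.192 to -0.0440. Deviations of 3 libraries from their own mean cancel out, so this second value is largely fixed by the first. It is therefore no separate evidence of pairing. For the same number, thyroid and hypothalamus gave -0.0212 to 0.178, and pituitary and hypothalamus -0.0757 to 0.158. Not every pair thus passed 0.1. With the number as a replicate block 17 members differed in genotype effect instead of 16 (5955 instead of 5790 of all genes), Ctsh being added (adjusted p = 0.0413). In WT thyroid against WT hypothalamus 37 members were called instead of 38, Rab5a being lost (adjusted p = 0.0664), with 28 higher and 9 lower. In WT thyroid against WT pituitary 35 were called in both.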
